A study of Rattus norvegicus with 6 samples.

Results

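Among 37456 nuclei of the rat nucleus accumbens shell that passed the filters, 458 carried transcripts of both Lhx8 and Sema3c without those of the cholinergic genes. Lhx8 encodes a LIM-homeodomain transcription factor of the ventral forebrain, and Sema3c a secreted semaphorin. Members were chosen by their UMI counts of 5 genes: a nucleus was taken when it had at least 1 unique molecular identifier (UMI, a count of 1 captured RNA molecule) of Lhx8 and at least 1 of Sema3c, no UMI of Chat or Slc5a7, which encode the enzyme that makes acetylcholine and the choline transporter, and fewer than 5 UMIs of Pde10a, the phosphodiesterase of spiny projection neurons. The members made up 1.22% of the nuclei (95% Wilson interval 1.12% to 1.34%, for counting error only). In single libraries their share ran from 0.278% to 2.24%. They held 4002224 UMIs, with a median of 7768.5 UMIs and 3464.5 genes per nucleus. Lhx8 and Sema3c were chosen because they led a cluster of these same nuclei. The levels of the genes in the rule, and of Lypd6b, Klhl1 and Elavl4, which came with the label of that cluster, are therefore a description, and the tests of all other genes measure how steady a difference was from library to library, not whether the members are a type of their own.

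The study profiled the shell of the nucleus accumbens, the ventral part of the striatum, by single-nucleus RNA sequencing with the 10x Genomics 3' kit, version 3.1. The rats were Long-Evans of 90 to 100 days, with no treatment named in the labels, and their frozen brains were cut at 200 µm and punched. Each library pooled shell tissue of 4 animals of 1 sex, and there were 3 female and 3 male libraries, called pools 1 to 3 of each sex, from 24 animals. A pool is the replicate, so every p-value measures the spread between pools and not between animals.

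Neurons that keep Lhx8 arise in the medial ganglionic eminence and the neighbouring preoptic region, embryonic zones that supply the globus pallidus, the ventral pallidum, the basal forebrain and the interneurons of the striatum. In the mouse, Lhx8 is needed for forebrain cholinergic neurons, and Nkx2-1, Lhx6 and Sox6 act in the same lineage. The projection neurons of the pallidum use GABA and fire fast and without pause, with channels of the Kv3 family, and the ventral pallidum lies directly below the shell. The labels give the shell as the tissue of every library, and neurons of the shell and of its borders cannot be told apart in them.

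The libraries differed in depth and in quality. They held 2873 to 16504 kept nuclei and 11131483 to 108800959 UMIs, and 1.55% to 40.7% of their barcodes were over the limit of 5% mitochondrial UMIs, with the highest share in female pool 2. The labels word the library source in 2 ways, and these 2 sets each hold both sexes: male pool 1 and female pool 3, the deepest libraries, form set A, and the other 4 form set B. A pair of libraries shared 0 to 51 kept barcodes. Scrublet, a doublet caller, marked 0.00606% and 0.0569% of nuclei in the 2 largest libraries by its own threshold and so did not work there. No nucleus was removed for doublets in the main values, and 22 members were among the nuclei of highest score.

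Members were found in every library. Female pools 1 to 3 held 71, 8 and 212 of them, which is 2.24%, 0.278% and 1.28% of the kept nuclei. Male pools 1 to 3 held 98, 23 and 46, or 1.11%, 0.742% and 1.53%. Female pools 1 and 2 thus lay at the extremes and the male pools between them. The mean share over 3 female pools was 1.27% ± 0.981 (SD) and over 3 male pools 1.13% ± 0.392, a difference of 0.141 percentage points (2-sided exact permutation test, p = 0.9, for which 3 pools against 3 allow no p below 0.1). The sign of this difference depended on single libraries: it was -0.346 points without female pool 1 and -0.0519 without male pool 2.

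With each nucleus thinned to 2000 UMIs and shallower nuclei left out, the share was 0.668%, 0.178% and 0.541% for female pools 1 to 3 and, for the male pools in this order, 0.358%, 0.327% and 0.661%. Female pool 2 remained the lowest. Cholinergic nuclei, here those with Chat and Slc5a7 and fewer than 5 UMIs of Pde10a, numbered 213. The ratio of members to them was 2.73, 0.727 and 2.16 for female pools 1 to 3 and, for the male pools in this order, 2.45, 1.77 and 1.84. Members outnumbered cholinergic nuclei in 5 of the 6 libraries, with female pool 2 as the exception.

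**Figure D1:**
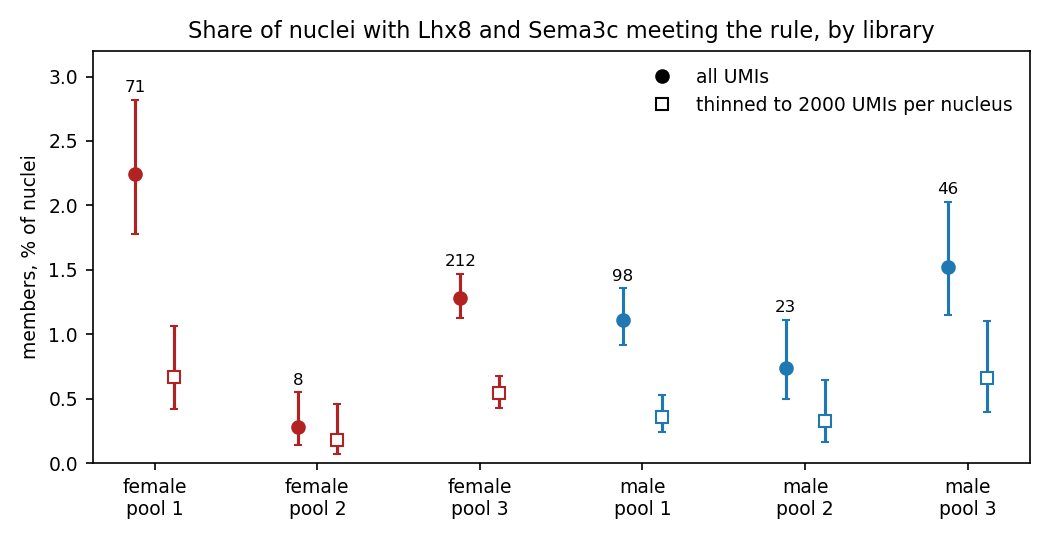
Share of kept nuclei that meet the rule in each library, with all UMIs (filled) and after thinning each nucleus to 2000 UMIs (open); bars are 95% Wilson intervals for counting error and the number of members is printed above. Female pool 2, with 8 members, is lowest at 0.278%, and female pool 1 is highest at 2.24%.

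The genes of the rule were met with few UMIs. Of the 458 members, 228 had a single UMI of Lhx8 and 123 a single UMI of Sema3c, while Pde10a was at 0 UMIs in 137, at 1 in 117, at 2 in 98, at 3 in 65 and at 4 in 41. Oligodendrocytes, which should lack both genes, gave a measure of free RNA in the droplets. Among 2428 oligodendrocytes without neuronal genes (median depth 1949.5 UMIs), 0.494% had Lhx8 and 2.14% had Sema3c, and 0 had both. After thinning to 2000 UMIs, 0.428% and 2.14% of 1169 oligodendrocytes had Lhx8 and Sema3c, and 0 had both, which allows a share of up to 0.257%. At that depth Sema3c was found in 3.13% of spiny neurons and 5.18% of all kept nuclei, against 2.14% of oligodendrocytes. The part of free RNA in members with a single UMI was not tested. Over all kept nuclei 1802 had Lhx8, 3910 had Sema3c and 783 had both.

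Summed over the members of a library, Lhx8 stood at 203, 264 and 231 counts per 1000000 (CPM) for female pools 1 to 3 and, for the male pools in this order, at 224, 243 and 272 CPM. Sema3c stood at 465, 358 and 446 CPM in the female and 467, 401 and 481 CPM in the male pools. The rule set both, so their even levels over the libraries are a description. Klhl1, which encodes an actin-binding kelch protein of neurons, was at 471, 132 and 356 CPM in female and 375, 426 and 574 CPM in male pools, lowest in female pool 2. Lypd6b, a member of the Ly6 family that acts on nicotinic receptors, was at 154, 56.6 and 170.2 CPM in female and 188, 154 and 145 CPM in male pools, again lowest in female pool 2. The 8 members of that pool held 53008 UMIs, so its values rest on few counts. Elavl4, an RNA-binding protein of neurons, ranged from 401 to 554 CPM. After thinning to 2000 UMIs, at least 1 UMI of these 3 label genes was found in 40.3% (Klhl1), 24.2% (Lypd6b) and 59.9% (Elavl4) of members, against 3.51%, 0.684% and 3.08% of the oligodendrocytes. With all UMIs the shares were 68.8%, 48.5% and 89.5% of members and 4.32%, 0.700% and 3.42% of the oligodendrocytes.

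Nuclei just outside the rule showed how sharp its limits are. Members with a single UMI of both Lhx8 and Sema3c (77 nuclei) had 52.2 CPM of Gbx1 and 359 CPM of Klhl1, while those with more than 1 UMI of each (184 nuclei) had 103 and 443 CPM. Nuclei that met the rest of the rule but had no Sema3c (553 nuclei) had 27.3 CPM of Gbx1 and 177 CPM of Klhl1, and those without Lhx8 (1432 nuclei) had 14.1 and 136 CPM. Lypd6b did not fall without Sema3c. It was at 175 CPM there and at 43.7 without Lhx8, against 167 in all members. In the same order Elavl4 was at 347 and 292 against 519 CPM, Lhx6 at 47.6 and 15.9 against 65.5, and Gad1 at 392 and 331 against 423. At the cholinergic limit Gbx1 and Isl1 changed abruptly, and Klhl1 did not. Nuclei with 1 UMI of Chat or Slc5a7 (19 nuclei) had 80.3 CPM of Gbx1, 5.36 of Isl1 and 380 of Klhl1. Those with more than 1 (50 nuclei) had 23.0, 109 and 391 CPM. The other label genes stood at 455 and 408 CPM (Elavl4) and at 220 and 165 CPM (Lypd6b) in these 2 groups. At the Pde10a limit Gbx1 fell stepwise, while Rgs9 was similar on both sides of it and higher past 6 UMIs. Members with 4 UMIs of Pde10a (41 nuclei) had 48.0 CPM of Gbx1 and 60.0 of Rgs9, a signalling gene of spiny neurons, nuclei with 5 or 6 (35 nuclei) had 33.1 and 51.5 CPM, and nuclei with more than 6 (148 nuclei) had 25.1 and 310 CPM. Members without Pde10a (137 nuclei) had 118 CPM of Gbx1 and 27.1 of Rgs9. The median depth rose in the same order, with 6097 UMIs without Pde10a, 11927 at 4, 15365 at 5 or 6 and 18276.5 past 6. Its part in these steps was not tested. From 4 to 5 or 6 UMIs the label genes did not move together. Lypd6b went from 176 to 243 CPM, Elavl4 from 488 to 579 and Klhl1 from 390 to 237.

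Members were compared with the other neurons of the same libraries, 29792 nuclei with at least 3 UMIs of the synaptic genes Syt1 and Snap25 together, and with 3 named classes. These were spiny neurons (6956 nuclei with 5 or more UMIs of Pde10a and a UMI of Drd1 or Drd2), cholinergic neurons, and interneurons with 3 or more UMIs of Sst and at least 1 of Nos1 (158 nuclei, written Sst/Nos1). Counts were summed per library and class and tested with edgeR's quasi-likelihood test with library as a block, over 5 libraries, since female pool 2 had fewer than 10 members. Against other neurons 4781 of 13749 genes were called at a Benjamini-Hochberg adjusted p under 0.05 (34.8%), 17.9% higher and 16.9% lower in members. Against spiny neurons 42.5% were called (23.7% higher, 18.9% lower), against cholinergic neurons 19.8% (10.5% higher, 9.38% lower) and against Sst/Nos1 interneurons 21.1% (10.6% each way). At an unadjusted p under 0.05 the shares were 42.6%, 49.4%, 30.2% and 30.7%. Genes that were higher in members in each of the 5 libraries made up 19.8%, 27.4%, 14.9% and 14.6%, and lower ones 17.5%, 17.3%, 11.7% and 12.9%. The counts of called genes in each list are read against these shares. With so many genes called, the size of a difference says more than the call. The median depths of the classes were 5296.5 UMIs in other neurons, 7709.5 in spiny, 7743 in cholinergic and 5365 in Sst/Nos1 nuclei.

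Transcription factors of the medial ganglionic eminence and pallidum set the members apart. Of 26 such genes, 21 were tested against other neurons, with 10 higher, 5 lower and a median log2 fold change of 0.73, against 0.02 over all genes tested. Gbx1, a homeodomain factor, had the largest fold of the genes named as higher. It stood at 76.3, 78.9, 99.1, 94.1 and 75.3 CPM in the members of female pools 1 and 3 and male pools 1 to 3, and at 2.33 to 5.74 CPM in the other neurons of these libraries. Every member value lay far above every value of the other neurons (84.7 ± 11.1 against 3.68 ± 1.31 CPM, SD, n = 5 libraries, log2 fold change 4.53 with SE 0.21, edgeR adjusted p = 4.61e-14). Lhx6, the LIM-homeodomain factor of neurons from the medial ganglionic eminence, stood at 66.6, 72.6, 64.4, 54.5 and 37.7 CPM in the same order. Its level in other neurons was 4.02 to 9.82 CPM, with no overlap (log2 fold change 3.16 with SE 0.18, edgeR adjusted p = 1.46e-12). Both genes were also higher than in spiny neurons, by 5.23 (SE 0.23) and 4.54 (SE 0.25) on the log2 scale (edgeR adjusted p = 1.84e-10 and 1.74e-09).

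The other 2 lineages of the region that use Lhx8 or Lhx6 separated these factors. Gbx1 was higher in members than in cholinergic neurons, where it stood at 5.06 ± 4.56 CPM (log2 fold change 3.93 with SE 0.33, edgeR adjusted p = 2e-08), and it had 1 UMI over all Sst/Nos1 interneurons. Lhx6 lay between the classes, with 59.2 ± 13.7 CPM in members, 27.3 ± 11.0 in cholinergic neurons (log2 fold change 1.12 with SE 0.22, edgeR adjusted p = 0.000668) and 97.6 ± 33.8 in Sst/Nos1 interneurons (log2 fold change -0.75 with SE 0.20, edgeR adjusted p = 0.00867). The last of these calls was lost with DESeq2 and with members without Pde10a. Sox6, an SRY-box factor that acts after Lhx6 in the mouse, was at 602, 784, 529, 927 and 727 CPM in members. Each of these values lay above every value of the other, spiny and cholinergic neurons and below every value of the Sst/Nos1 interneurons. The mean was 714 ± 156 CPM in members, 2783 ± 616 in Sst/Nos1 interneurons (log2 fold change -2.0 with SE 0.15), 229 ± 47.8 in other neurons (1.56 with SE 0.12), 108 ± 51.3 in spiny (2.65 with SE 0.19) and 84.6 ± 66.7 in cholinergic neurons (3.09 with SE 0.21), with edgeR adjusted p of 2.29e-08 or less.

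**Figure D2:**
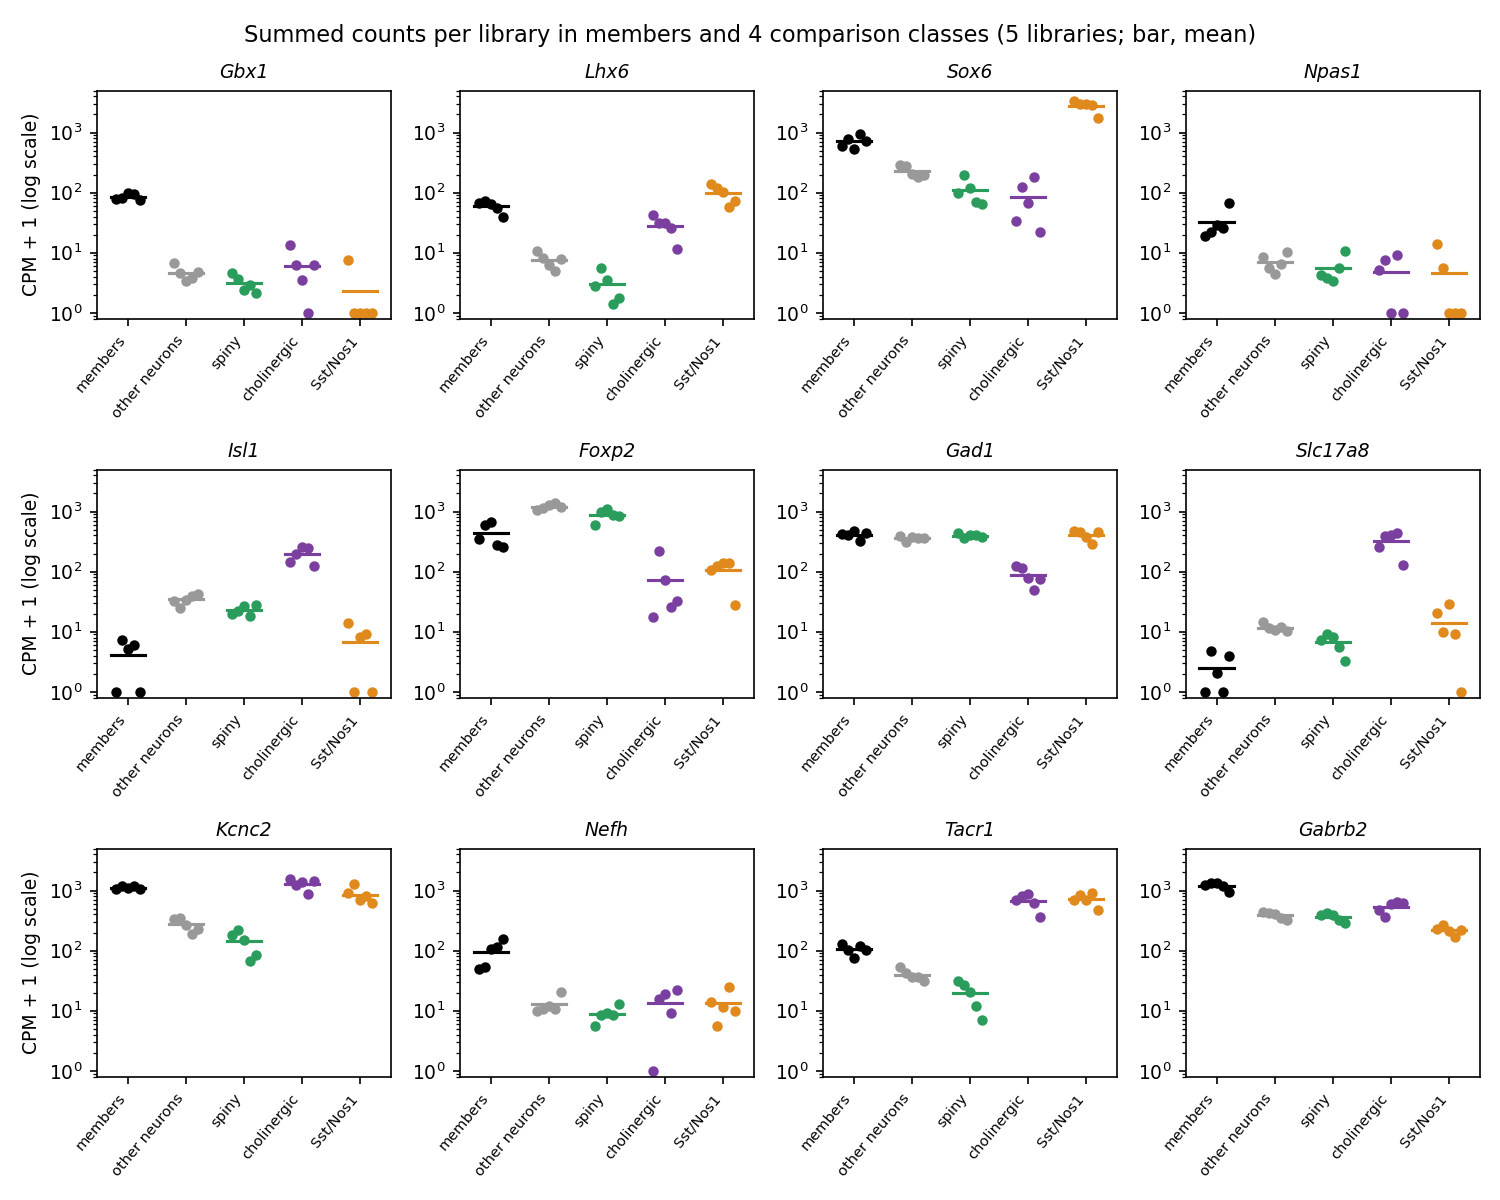
CPM + 1 (log axis) of the genes named above each panel in members, other neurons, spiny, cholinergic and Sst/Nos1 nuclei, where each point is 1 of 5 libraries. Gbx1 is at 75.3 to 99.1 CPM in members and at 2.33 to 5.74 in other neurons, and Sox6 at 529 to 927 CPM in members and 1717 to 3314 in Sst/Nos1 interneurons.

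The promoters of these 3 factors are shown because the factors separate the members from the other classes, and because homeodomain proteins such as those of Lhx8, Lhx6 and Gbx1 bind sites with the core TAATTA. Each sequence runs from 250 bases before to 50 after the start of the gene, on the strand of the gene, and comes from RefSeq on the GRCr8 assembly, which is not the build of the counts. Gbx1 lies at chr4:11538152-11538451 on the plus strand, Lhx6 at chr3:39853374-39853673 on the minus strand and Sox6 at chr1:179665322-179665621 on the minus strand. Capitals mark TAATTA, which reads the same on both strands.
Gbx1: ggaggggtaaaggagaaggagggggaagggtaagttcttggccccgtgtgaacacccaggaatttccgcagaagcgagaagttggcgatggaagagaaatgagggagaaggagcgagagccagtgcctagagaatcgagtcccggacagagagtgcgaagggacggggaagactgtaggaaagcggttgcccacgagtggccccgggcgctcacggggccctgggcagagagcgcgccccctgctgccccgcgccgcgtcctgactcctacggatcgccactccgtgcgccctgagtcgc
Lhx6: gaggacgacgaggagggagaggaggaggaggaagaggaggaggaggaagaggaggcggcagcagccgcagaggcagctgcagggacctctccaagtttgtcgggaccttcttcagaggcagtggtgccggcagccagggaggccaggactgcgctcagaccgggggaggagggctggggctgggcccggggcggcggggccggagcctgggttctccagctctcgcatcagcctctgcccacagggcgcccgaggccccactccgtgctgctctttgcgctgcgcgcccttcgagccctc
Sox6: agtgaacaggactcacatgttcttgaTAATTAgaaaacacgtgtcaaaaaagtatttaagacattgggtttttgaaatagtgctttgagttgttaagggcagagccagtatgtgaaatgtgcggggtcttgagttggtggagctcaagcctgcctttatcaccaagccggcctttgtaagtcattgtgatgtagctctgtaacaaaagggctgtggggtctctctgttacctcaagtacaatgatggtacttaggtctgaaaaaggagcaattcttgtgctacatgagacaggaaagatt
The motif occurred in the Sox6 promoter, from base 27 of the sequence, and its letters are not in the other two windows. Over all 33469 promoters of the table, 1793 (5.36%) held it. Of the 12 genes named as higher in members than in other neurons, 11 had a promoter entry and 0 of these held it, and of 9 with an entry against cholinergic neurons 1 held it, which was Sox6. A match is a description of the letters and not of a bound site.

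Lower-abundance factors of the pallidum were found in few members. Npas1, a factor of arkypallidal neurons of the mouse globus pallidus, stood at 18.2, 21.3, 27.6, 24.8 and 66.6 CPM in members of the 5 libraries, highest in male pool 3. It averaged 31.7 ± 19.9 against 6.04 ± 2.33 CPM in other neurons (log2 fold change 2.31 with SE 0.25, edgeR adjusted p = 7.85e-08), and 43 of the 458 members had a UMI. The list of genes of pallidal cell types that holds Npas1 was mixed. Of 11 tested against other neurons 7 were higher and 3 lower (Foxp2, Penk and Meis2), and of 10 against spiny neurons 7 were higher and the same 3 lower. Of 7 tested, 5 were higher and 0 lower than in cholinergic neurons, and 3 higher and 4 lower than in Sst/Nos1 interneurons. Nkx2-1, which specifies the medial ganglionic eminence, stood at 9.75 ± 6.42 against 1.76 ± 0.597 CPM (log2 fold change 1.90 with SE 0.43, edgeR adjusted p = 0.00118) and had a UMI in 25 members. Satb1, a factor of developing interneurons in the mouse, was also higher than in other neurons (129 ± 50.5 against 28.7 ± 15.2 CPM, log2 fold change 2.01 with SE 0.15, edgeR adjusted p = 1.73e-10). Zic1, a zinc finger factor, was not called (3.99 ± 2.85 against 2.41 ± 0.911 CPM, log2 fold change 0.86 with SE 0.38, edgeR adjusted p = 0.0903).

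Detection of these genes in single members was sparse. Lhx6 had a UMI in 188 members and Gbx1 in 168, with 79 holding both and 181 neither. After thinning to 2000 UMIs, 12.1% of 454 members had Lhx6 and 17.4% had Gbx1, against 0.171% and 0.257% of oligodendrocytes. Those shares lay far above the background, while that of Nkx2-1, 0.661% against 0.257%, rested on 3 members. Of the 43 members with Npas1, 39 also had Klhl1 (90.7%), and over all members 68.8% did.

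Some factors of the same list went the other way. Isl1, a LIM-homeodomain factor kept by cholinergic neurons, stood at 0, 6.26, 4.09, 4.96 and 0 CPM in members and at 33.5 ± 7.03 in other neurons (log2 fold change -3.02 with SE 0.33, edgeR adjusted p = 6.95e-08). It was at 193 ± 61.1 CPM in cholinergic neurons (log2 fold change -5.65 with SE 0.29, edgeR adjusted p = 1.17e-11), whose genes Chat and Slc5a7 the rule kept out. Zic4 was higher in members than in other neurons (10.5 ± 4.86 against 5.40 ± 1.09 CPM, log2 fold change 0.81 with SE 0.29, edgeR adjusted p = 0.0349), a call lost with DESeq2 and without nuclei of high doublet score, and lower than in cholinergic neurons (56.8 ± 11.1 CPM, log2 fold change -2.40 with SE 0.28, edgeR adjusted p = 2.01e-06). Lmo3, a LIM-only cofactor, was lower than in other neurons (39.1 ± 18.4 against 165 ± 16.9 CPM, log2 fold change -2.06 with SE 0.15, edgeR adjusted p = 7.59e-11) and than in Sst/Nos1 interneurons (543 ± 149.5 CPM, log2 fold change -3.62 with SE 0.20, edgeR adjusted p = 5.92e-11). Against cholinergic neurons 6 of 11 tested genes of the list were higher and 5 lower, and against Sst/Nos1 interneurons 4 of 9 were higher and 3 lower.

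Transcription factors of spiny neurons were lower in members than in other and spiny neurons. All 11 tested of them were lower in members than in other neurons (median log2 fold change -1.93), and all 11 were lower than in spiny neurons (median -2.45, against 0.06 over all genes tested). The rule kept out nuclei with 5 or more UMIs of Pde10a, which favours this direction. Against cholinergic neurons 3 of 6 tested were higher (Foxp2, Bcl11b and Rarb) and 1 lower, and against Sst/Nos1 interneurons 1 of 5 was higher and 2 lower. Meis2, a homeobox factor of striatal projection neurons, was at 14.5, 198, 117, 0 and 43.5 CPM in members and 1020.0 to 1574 CPM in other neurons. The members varied widely but never overlapped with the other neurons (74.6 ± 82.4 against 1404 ± 223 CPM, log2 fold change -4.15 with SE 0.29, edgeR adjusted p = 3.26e-11). A UMI of Meis2 was found in 13.9% of thinned members, below the 18.7% of oligodendrocytes. With all UMIs the order was reversed, with 32.8% of members and 21.1% of oligodendrocytes. Foxp2, a forkhead factor, stood at 345, 605, 666, 277 and 255 CPM, a pooled level that was lower than in other neurons (1209 ± 135 CPM, log2 fold change -1.52 with SE 0.15) and higher than in cholinergic (72.0 ± 83.3 CPM, 2.49 with SE 0.25) and Sst/Nos1 nuclei (107 ± 46.3 CPM, 2.04 with SE 0.18), with edgeR adjusted p of 1.77e-07 or less. This level was uneven among members: 61 nuclei that clustered apart (sub-group 3, described with the other sub-groups) had 2519 CPM of Foxp2, and all other members had 167 CPM. The calls were not tested without these nuclei.

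Members carried the genes of GABA synthesis and release. Gad1, which encodes an enzyme that makes GABA, stood at 420.3, 405, 477, 322 and 435 CPM in members. It was not called against other neurons (358 ± 28.2 CPM, log2 fold change 0.18 with SE 0.09, edgeR adjusted p = 0.118) or spiny neurons (395 ± 30.3 CPM, log2 fold change -0.01 with SE 0.10, edgeR adjusted p = 0.957), and it was higher than in cholinergic neurons (87.7 ± 30.2 CPM, log2 fold change 2.15 with SE 0.15, edgeR adjusted p = 1.84e-09). Slc32a1, the vesicular GABA transporter, was higher than in other neurons (78.4 ± 31.2 against 49.0 ± 27.0 CPM, log2 fold change 0.72 with SE 0.12), while Gad2 was lower (354 ± 42.7 against 439 ± 70.0 CPM, log2 fold change -0.34 with SE 0.09), with edgeR adjusted p = 2.84e-05 and 0.00412. All 5 tested genes of the list were higher than in cholinergic neurons, and 1 of 5 (Abat, which breaks GABA down) than in Sst/Nos1 interneurons. The Abat calls were lost with members without Pde10a, and the latter also with DESeq2. After thinning, 81.1% of members had a UMI of Gad1, Gad2 or Slc32a1 (95% Wilson interval 77.2% to 84.4%), against 80.9% of spiny neurons, 37.9% of cholinergic neurons and 27.7% of oligodendrocytes.

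Genes of glutamate release were at the background after thinning. A UMI of the vesicular glutamate transporters Slc17a6, Slc17a7 or Slc17a8 was found in 2.42% of thinned members, below the 3.34% of oligodendrocytes, and in 35.5% of cholinergic neurons. With all UMIs the shares were 7.64% of members, 3.25% of oligodendrocytes and 61.5% of cholinergic neurons. The median depth was 7768.5 UMIs in members and 1949.5 in these oligodendrocytes. Slc17a8 stood at 1.53 ± 1.71 against 319.9 ± 128 CPM in cholinergic neurons (log2 fold change -7.26 with SE 0.28, edgeR adjusted p = 1.85e-13). The rule asked for no Chat and no Slc5a7, which favours a low level of cholinergic genes. Ache, which encodes acetylcholinesterase, was higher than in other neurons (48.4 ± 15.9 against 17.6 ± 3.74 CPM, log2 fold change 1.34 with SE 0.15, edgeR adjusted p = 7.85e-08) and lower than in cholinergic neurons (93.3 ± 31.7 CPM, log2 fold change -1.18 with SE 0.22, edgeR adjusted p = 0.000371), the latter a call lost with members without Pde10a. Slc18a3, the vesicular acetylcholine transporter, had 0 UMIs over all kept nuclei.

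Genes of fast firing were mostly higher in members. Of 22 tested against other neurons, 17 were higher and 3 lower (median log2 fold change 0.82), and of 20 tested against spiny neurons 15 were higher and 4 lower. Kcnc2, a Kv3 potassium channel gene, stood at 1059.9, 1175, 1104, 1169 and 1055 CPM in members and at 190.3 to 342 CPM in other neurons. The 2 ranges were far apart (1113 ± 57.6 against 272 ± 66.7 CPM, log2 fold change 2.0 with SE 0.10, edgeR adjusted p = 2.27e-13), and 70.5% of thinned members had a UMI against 5.05% of oligodendrocytes. Its level did not pass the test against cholinergic neurons (1297 ± 253 CPM, log2 fold change -0.24 with SE 0.13, edgeR adjusted p = 0.234). It was higher than in Sst/Nos1 interneurons (855 ± 255 CPM, log2 fold change 0.39 with SE 0.13, edgeR adjusted p = 0.0323), a call lost with DESeq2, without nuclei of high doublet score and with members without Pde10a. Kcnc1, its close relative, was higher than in all 4 classes, by 0.60 (SE 0.13) to 1.24 (SE 0.10) on the log2 scale (edgeR adjusted p of 0.00187 or less).

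The neurofilament genes, which build the cytoskeleton of large axons, were higher too. Nefh was at 48.5, 52.6, 104, 114 and 154 CPM in members of female pools 1 and 3 and male pools 1 to 3, and at 8.74 to 19.9 CPM in other neurons. All 5 member values were above all those of the other neurons (94.6 ± 44.3 against 11.8 ± 4.60 CPM, log2 fold change 2.84 with SE 0.16, edgeR adjusted p = 6.39e-13), and Nefh was also higher than in the other 3 classes. Nefm (65.1 ± 14.3 against 22.8 ± 8.57 CPM, log2 fold change 1.51 with SE 0.14) and Nefl (75.4 ± 20.2 against 48.6 ± 18.1 CPM, log2 fold change 0.65 with SE 0.11) followed, with edgeR adjusted p = 3.57e-09 and 5.28e-05, and the call of Nefl was lost when members needed 2 or more UMIs of both Lhx8 and Sema3c. Of the channels that drive repeated spikes, the sodium channel gene Scn1a was higher (779.7 ± 68.9 against 507 ± 44.0 CPM, log2 fold change 0.57 with SE 0.08, edgeR adjusted p = 2.09e-06). The pacemaker channel genes Hcn2 (97.1 ± 18.2 against 46.7 ± 8.83 CPM, log2 fold change 1.0 with SE 0.11) and Hcn4 (14.0 ± 6.41 against 3.07 ± 1.07 CPM, log2 fold change 1.85 with SE 0.34) were higher, with edgeR adjusted p = 6.14e-08 and 0.000105, and the call of Hcn4 was lost with members without Pde10a. The lower genes included Kcna1 (24.1 ± 6.18 against 32.8 ± 11.1 CPM, lower in 3 of the 5 libraries) and Scn4b (7.27 ± 6.97 against 31.9 ± 12.1 CPM, log2 fold change -1.93 with SE 0.23, edgeR adjusted p = 4.56e-07). Against cholinergic neurons 11 of 17 and against Sst/Nos1 interneurons 11 of 16 were called higher, and 0 lower in either by edgeR. Pvalb, a calcium buffer of many fast-firing neurons, was low in members and higher than in other neurons (9.76 ± 4.51 against 1.26 ± 0.446 CPM, log2 fold change 2.78 with SE 0.37, edgeR adjusted p = 1.7e-06), and 1.54% of thinned members had a UMI of it, against 0.342% of oligodendrocytes.

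**Figure D3:**
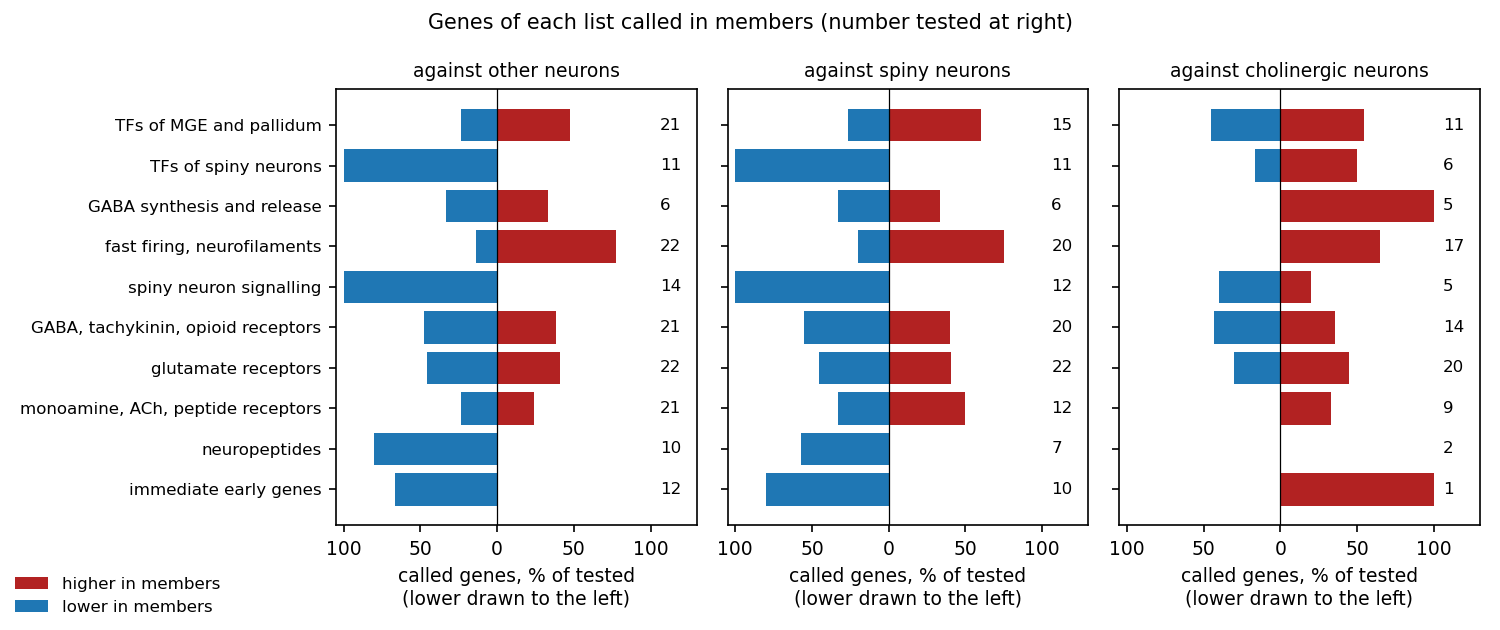
Share (percent) of the tested genes of each list that edgeR called higher (right of 0) or lower (left of 0) in members against other, spiny and cholinergic neurons, with the number of genes tested beside the bars. Fast firing genes are mostly higher against other neurons (17 of 22), and spiny neuron factors (11 of 11) are all lower.

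Signalling genes of spiny neurons were lower in members than in other and spiny neurons. All 14 tested against other neurons were lower, with a median log2 fold change of -2.49, and all 12 tested against spiny neurons were lower (median -2.97), a direction that the Pde10a limit favours. Against cholinergic neurons 1 of 5 tested was higher, which was Arpp21 (177 ± 30.7 against 58.7 ± 22.3 CPM, log2 fold change 1.51 with SE 0.16, edgeR adjusted p = 4.91e-07), and 2 were lower. Against Sst/Nos1 interneurons 0 of 6 were called higher and 3 lower by edgeR. Rgs9, a regulator of dopamine receptor signalling, stood at 33.8 ± 14.3 against 525 ± 134 CPM in other neurons (log2 fold change -3.65 with SE 0.15, edgeR adjusted p = 5.13e-15). The 6 spiny neuron markers together reached 64.4 to 132 CPM per library in members (median 93.3), against 1252 to 1989 in spiny neurons and 97.9 to 329.6 in oligodendrocytes. In thinned members Rgs9 was found in 7.49%, against 6.50% of oligodendrocytes, and Penk, the enkephalin precursor, in 8.81% against 17.7%. At that depth both were thus near or below the background. With all UMIs both shares were higher in members, with 24.02% against 7.45% for Rgs9 and 23.8% against 20.02% for Penk. The members were deeper than these oligodendrocytes (median 7768.5 against 1949.5 UMIs), and the part of depth in these shares was not tested. Of 10 neuropeptide genes tested against other neurons, 0 were higher and 8 lower, among them Penk (39.4 ± 14.0 against 146 ± 66.2 CPM, log2 fold change -1.81 with SE 0.14, edgeR adjusted p = 2.07e-10) and Tac1, the substance P precursor (50.8 ± 36.4 against 189 ± 83.0 CPM, log2 fold change -2.17 with SE 0.16, edgeR adjusted p = 7.77e-11).

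Markers of other cell types differed in direction. All 6 oligodendrocyte markers were lower than in other neurons, and their sum was 257 to 547 CPM per library in members (median 411), 419 to 658 in other neurons and 10694 to 16545 in oligodendrocytes. The 6 astrocyte markers summed to 18.2 to 111 CPM, against 93.7 to 282 in other neurons. Npy was at 0 in members, and the 4 Sst/Npy interneuron markers summed to 43.9 to 94.3 CPM, against 1760.4 to 3035 in Sst/Nos1 interneurons. Of 3 tested markers of Pvalb/Pthlh interneurons, 2 were higher than in other neurons, Pvalb among them, and 1 lower (median log2 fold change 1.56), with the same counts against spiny neurons (median 2.65). The part of such interneurons in these values was not tested. The septal markers parted: Prlr, the prolactin receptor, was higher than in all 4 classes, by 1.40 (SE 0.33) to 2.59 (SE 0.23) on the log2 scale (edgeR adjusted p of 0.00401 or less). Trpc4, a cation channel gene, was higher than in spiny neurons (74.7 ± 22.3 against 21.7 ± 16.6 CPM, log2 fold change 1.53 with SE 0.28, edgeR adjusted p = 0.000334), was not called against other neurons (edgeR adjusted p = 0.0672) and was lower than in cholinergic and Sst/Nos1 nuclei (log2 fold changes -0.63 and -1.41). The cholinergic call of Trpc4 was lost with DESeq2 and with members without Pde10a. Over 9144 genes the log2(CPM + 1) profile of members correlated at r = 0.910 with that of cholinergic neurons, 0.905 with Sst/Nos1 interneurons, 0.904 with other neurons, 0.878 with spiny neurons and 0.569 with oligodendrocytes. These values are across genes of the same libraries and carry no test.

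GABA-A receptor subunits differed by type. Of 21 tested receptors for transmitters and peptides of spiny neurons, 8 were higher and 10 lower than in other neurons (median log2 fold change -0.62). Gabrb2, the beta 2 subunit, was at 1217, 1341, 1322, 1179 and 956 CPM in members and 319 to 445 CPM in other neurons. The members lay wholly above (1203 ± 154 against 388 ± 51.8 CPM, log2 fold change 1.59 with SE 0.08, edgeR adjusted p = 1.12e-13). Over the 4 classes the difference was 1.19 (SE 0.15) to 2.45 (SE 0.13) on the log2 scale for Gabrb2. In contrast Gabra4 (52.9 ± 29.9 against 387 ± 49.6 CPM, log2 fold change -2.73 with SE 0.14, edgeR adjusted p = 3.01e-13) and Gabrd (0.705 ± 1.10 against 26.6 ± 5.51 CPM, log2 fold change -4.38 with SE 0.38, edgeR adjusted p = 2.03e-09), subunits of extrasynaptic receptors, were lower, where Gabrd had 5 counts over all members.

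Tachykinin and opioid receptors also differed. Tacr1, the substance P receptor, stood at 127, 101, 75.6, 119 and 101 CPM in members and 29.8 to 52.3 CPM in other neurons (105 ± 19.9 against 38.9 ± 8.65 CPM, log2 fold change 1.31 with SE 0.11, edgeR adjusted p = 1.79e-09). It was well below cholinergic (673 ± 200.3 CPM, log2 fold change -2.78 with SE 0.17) and Sst/Nos1 nuclei (723 ± 168 CPM, -2.83 with SE 0.14), with edgeR adjusted p = 2.45e-10 and 1.22e-11. In thinned members 18.7% had a UMI of it, against 0.599% of oligodendrocytes. The delta opioid receptor gene Oprd1 (9.93 ± 5.02 against 54.2 ± 6.87 CPM, log2 fold change -2.40 with SE 0.19, edgeR adjusted p = 3.39e-10) and the mu receptor gene Oprm1 (56.4 ± 9.90 against 137 ± 52.0 CPM, log2 fold change -1.16 with SE 0.16, edgeR adjusted p = 2.5e-06) were lower than in other neurons, and both were lower than in spiny and cholinergic neurons as well.

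Among 21 tested receptors for monoamines, acetylcholine and peptides, 5 were higher and 5 lower than in other neurons. Hcrtr2, an orexin receptor, was higher than in every class compared, for example 118 ± 34.1 against 48.5 ± 15.2 CPM in other neurons (log2 fold change 1.29 with SE 0.13, edgeR adjusted p = 2.29e-08). Htr2c, a serotonin receptor, stood at 464 ± 92.7 CPM in members, below other neurons (719.7 ± 64.6 CPM, log2 fold change -0.67 with SE 0.10, edgeR adjusted p = 1.58e-05) and Sst/Nos1 interneurons (1617 ± 229.7 CPM, log2 fold change -1.81 with SE 0.14, edgeR adjusted p = 6.05e-09). It was far above cholinergic neurons (49.1 ± 38.5 CPM, log2 fold change 3.01 with SE 0.21, edgeR adjusted p = 1.2e-09). Crhr1, the receptor of corticotropin-releasing hormone (38.3 ± 18.1 against 13.2 ± 2.82 CPM, log2 fold change 1.62 with SE 0.17), and the muscarinic receptor gene Chrm3 (13.6 ± 8.36 against 2.81 ± 0.786 CPM, log2 fold change 1.73 with SE 0.37) were higher than in other neurons, with edgeR adjusted p = 6.36e-08 and 0.000597.

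Glutamate receptors divided evenly. Of 22 tested against other neurons, 9 were higher and 10 lower, with a median log2 fold change of 0.01. Gria4, an AMPA receptor subunit, was higher (1823 ± 168 against 889.8 ± 73.0 CPM, log2 fold change 0.99 with SE 0.08, edgeR adjusted p = 2.6e-10) and Gria1 lower (163 ± 68.3 against 839 ± 111 CPM, log2 fold change -2.39 with SE 0.13, edgeR adjusted p = 3.12e-13). The kainate receptor genes Grik1 (265 ± 60.5 against 87.1 ± 22.1 CPM, log2 fold change 1.55 with SE 0.09) and Grik3 (441 ± 27.0 against 134 ± 30.3 CPM, log2 fold change 1.66 with SE 0.10) were higher, with edgeR adjusted p = 2.14e-12 and 1.84e-12, as was the NMDA receptor subunit Grin2d (25.8 ± 3.85 against 5.41 ± 2.04 CPM, log2 fold change 2.24 with SE 0.24, edgeR adjusted p = 6.16e-08). Gria4, Grik1 and Grik3 were called higher in each of the 4 class comparisons.

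Relatives of the marker genes and hormone receptors completed the lists. Nrp2, a receptor of class 3 semaphorins, was higher than in all 4 classes, and stood at 316 ± 34.2 against 117 ± 20.5 CPM in other neurons (log2 fold change 1.36 with SE 0.10, edgeR adjusted p = 4.6e-11). Sema3a, a ligand related to Sema3c, was lower (14.3 ± 4.25 against 49.9 ± 3.50 CPM, log2 fold change -1.72 with SE 0.17, edgeR adjusted p = 1.4e-08), and in all 2 of 13 tested genes of semaphorin signalling were higher and 6 lower. Elavl2, a relative of Elavl4, was higher than in other neurons (555 ± 23.9 against 184 ± 65.4 CPM, log2 fold change 1.57 with SE 0.13, edgeR adjusted p = 8.58e-10) and lower than in cholinergic neurons (2171 ± 186 CPM, log2 fold change -1.99 with SE 0.12, edgeR adjusted p = 7.26e-11). Of 9 tested steroid and hormone receptors 4 were higher and 2 lower. Esr1, the estrogen receptor alpha, was not called (53.9 ± 25.2 against 54.3 ± 23.6 CPM, edgeR adjusted p = 0.946). Of 12 immediate early genes, which rise after neuronal activity, 0 were higher and 8 lower than in other neurons. Egr1 was at 16.1 ± 11.1 against 34.8 ± 8.03 CPM (log2 fold change -0.95 with SE 0.20, edgeR adjusted p = 0.000559), while Fos was not called (10.6 ± 8.24 against 8.54 ± 5.40 CPM, edgeR adjusted p = 0.569). Against spiny neurons 0 of 10 were higher and 8 lower. Against cholinergic and Sst/Nos1 nuclei only 1 gene of this list, Homer1, was tested. It was higher than in the former, a call lost with members without Pde10a, and lower than in the latter.

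Beyond the lists, the genes of largest fold were named by a rule: called, in the same direction in all 5 libraries and at 20 or more CPM in the higher class. Against other neurons the 12 named as higher were Gbx1, Asb18, Lhx6, Gpc3, Tafa4, Sertm1, Morn5, Lypd6b, Hapln4, Nefh, Stac and Elfn1. Gpc3, a cell surface glypican (267 ± 57.1 against 28.0 ± 8.25 CPM, log2 fold change 3.15 with SE 0.12, edgeR adjusted p = 3.13e-15), and Tafa4, a secreted chemokine-like peptide (147 ± 38.2 against 17.7 ± 4.56 CPM, log2 fold change 3.07 with SE 0.13, edgeR adjusted p = 4.76e-15), were among them. Hapln4, a link protein of perineuronal nets, was higher too (81.2 ± 20.7 against 10.4 ± 2.44 CPM, log2 fold change 2.85 with SE 0.19, edgeR adjusted p = 1.48e-11) and was called higher in each of the other 3 class comparisons. Elfn1, a synaptic protein that binds metabotropic glutamate receptors, was at 128 ± 21.9 against 18.2 ± 5.54 CPM (log2 fold change 2.65 with SE 0.14, edgeR adjusted p = 5.24e-13). The 8 named as lower were Gabrd, Syndig1l, Ca12, Ppp1r17, Meis2, Prkch, Ankrd33b and Sh3rf2. Ca12, a carbonic anhydrase (7.50 ± 3.75 against 148 ± 25.5 CPM, log2 fold change -4.20 with SE 0.17, edgeR adjusted p = 4.76e-15), and Prkch, a protein kinase C (8.16 ± 3.73 against 131 ± 15.5 CPM, log2 fold change -4.07 with SE 0.17, edgeR adjusted p = 8.81e-15), were low in every library. Ppp1r17 had 3 counts over all members, so its level is given without a fold (1.74 ± 3.89 against 23.0 ± 20.5 CPM).

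Against spiny neurons 11 of these 12 higher genes were named again, all but Nefh, with Adcy7 as the newcomer, and the cholinergic comparison named others. Those named as higher than in cholinergic neurons were Gbx1, Syt2, Ndst4, Tcerg1l, Hapln4, Angpt1, Sox6, Rorb, Htr2c, Col25a1, Cdh12 and Rgma. Rorb, a nuclear receptor (331 ± 78.1 against 34.5 ± 20.8 CPM, log2 fold change 3.08 with SE 0.20, edgeR adjusted p = 4.64e-10), and Syt2, a fast calcium sensor of transmitter release (42.6 ± 12.4 against 4.29 ± 2.67 CPM, log2 fold change 3.64 with SE 0.42, edgeR adjusted p = 1.3e-06), were among them. Those named as lower included Ecel1, Insrr, Slc17a8, Cd44, Prima1, Rxfp2 and Isl1. Prima1, which anchors acetylcholinesterase in the membrane, was at 6.64 ± 7.96 against 474 ± 74.2 CPM (log2 fold change -6.28 with SE 0.24, edgeR adjusted p = 1.85e-13). Ecel1, Cd44 and Insrr had 3, 3 and 1 counts over all members, at 0.947 ± 1.20 against 256 ± 49.2 CPM, 0.610 ± 1.05 against 115 ± 43.0 CPM and 0.242 ± 0.542 against 119 ± 17.4 CPM.

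Against Sst/Nos1 interneurons the 12 named as higher were Gbx1, Gpc3, Pld5, Tafa4, Lgi2, Hapln4, Angpt1, Klhl1, Tshz3, Rorb, Sorcs3 and Sntb1. Gpc3 (267 ± 57.1 against 13.8 ± 12.3 CPM, log2 fold change 4.30 with SE 0.28, edgeR adjusted p = 3.87e-10) and Pld5 (573 ± 100.2 against 40.2 ± 23.5 CPM, log2 fold change 3.74 with SE 0.22, edgeR adjusted p = 9.66e-11) were among them. The 8 named as lower were Klf5, Igfbpl1, Fat4, Hhip, Moxd1, Sox2, Lmo3 and Reln. Reln, which encodes the extracellular protein reelin (10.6 ± 6.98 against 134 ± 33.5 CPM, log2 fold change -3.55 with SE 0.28, edgeR adjusted p = 9.69e-09), and Sox2, an SRY-box factor (6.23 ± 4.75 against 90.5 ± 17.5 CPM, log2 fold change -3.62 with SE 0.36, edgeR adjusted p = 1.87e-07), were among them. The 158 interneurons gave few counts per library, and 5341 genes could be tested.

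Members were not uniform among themselves. Clustering of the 458 nuclei alone gave 9 sub-groups of 18 to 67 nuclei, which are described by CPM inside against CPM in all other members, with no test, since the same genes made the sub-groups. Gad1 was at 338 to 504 CPM in all 9. Sox6 divided them widely, with 1695 CPM in sub-group 8, 1234 in sub-group 4 and 1079 in sub-group 2. It was at 29.3, 9.16 and 42.7 CPM in sub-groups 1, 6 and 9. Lypd6b ranged over 16.2 to 331 CPM and Klhl1 over 208 to 757. Lhx6 was at 43.7 to 80.1 CPM in sub-groups 1 to 8.

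Sub-groups 1 and 6 shared low Sox6, as did sub-group 9, described below. Sub-group 1 (67 nuclei) was led by Efemp1 (69.4 against 7.45 CPM), Fign (251 against 38.5) and Man1a1 (281 against 45.3), and held the enzyme gene Enpp2 at 462 against 109 CPM and the calcium sensor gene Syt2 at 98.7 against 27.7. Nefh was at 151 CPM there. Sub-group 6 (41 nuclei) was led by Tafa4 (618 against 81.9 CPM), Tacr3, the neurokinin B receptor (71.0 against 7.57), and Sema5a (744 against 135). It held the collagen gene Col25a1 at 669 against 133 CPM, and both septal markers, Prlr at 190.0 and Trpc4 at 183 CPM.

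Sub-groups 2, 4, 5 and 8 had the highest Sox6. Sub-group 2 (61 nuclei) was led by Dusp10 (74.8 against 19.6 CPM), the ETS factor gene Etv1 (148 against 42.9) and Nts, the neurotensin precursor (170.5 against 50.3), and held Oprm1 at 127 against 42.9 CPM. Sub-group 4 (64 nuclei) was led by the homeobox gene Meis1 (492 against 25.9 CPM), Vcan (138 against 6.12) and Npas1 (133 against 8.16), with Satb1 at 465 against 83.9 CPM. In it 37.5% of nuclei had a UMI of Npas1. Its leading genes also held Bcas1, a gene of the oligodendrocyte lineage (273 against 33.8 CPM), and 5 of its nuclei were among those of highest doublet score. Sub-group 5 (47 nuclei) was led by Rorb (1399 against 191 CPM), held Nts at 166 against 52.4 CPM and had the lowest Kcnc2, 80.9 CPM. Sub-group 8 (66 nuclei) was led by Meox2 (67.3 against 4.80 CPM), Smoc1 (93.3 against 13.8) and the cadherin gene Cdh12 (1302 against 249.6), with Sema3e at 388 against 108 CPM.

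The remaining sub-groups were 3, 7 and 9. Sub-group 3 (61 nuclei) was led by Foxp2 (2519 against 167 CPM), Angpt1 (425 against 44.3) and Pdzrn3 (137 against 15.5), with Meis2 at 359 against 72.4 CPM, and 10 of its nuclei were among those of highest doublet score. Sub-group 7 (33 nuclei) was led by the oligodendrocyte gene Mog (258 against 18.7 CPM) and by St18 (175 against 15.2). It held Mobp, also an oligodendrocyte gene, at 125 against 12.3 CPM, while 5 of its nuclei had the highest doublet scores. St18 was also among the leading genes of sub-group 6 (87.0 against 18.2 CPM), where Mog was at 11.4 and Mobp at 4.58 CPM. The part of doublets in sub-groups 3, 4 and 7 was not tested. Sub-group 9 (18 nuclei) was led by the homeobox gene Zfhx4 (1068 against 61.0 CPM), Upp2 (76.9 against 1.80) and Nnat (607 against 48.9). It had 0 counts of Gbx1 and of Lhx6, where 3 counts would be 25.6 CPM, and its Isl1 was at 34.2 CPM, the highest of the 9. The septal markers Prlr and Trpc4 were at 111 and 188 CPM in it.

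**Figure D4:**
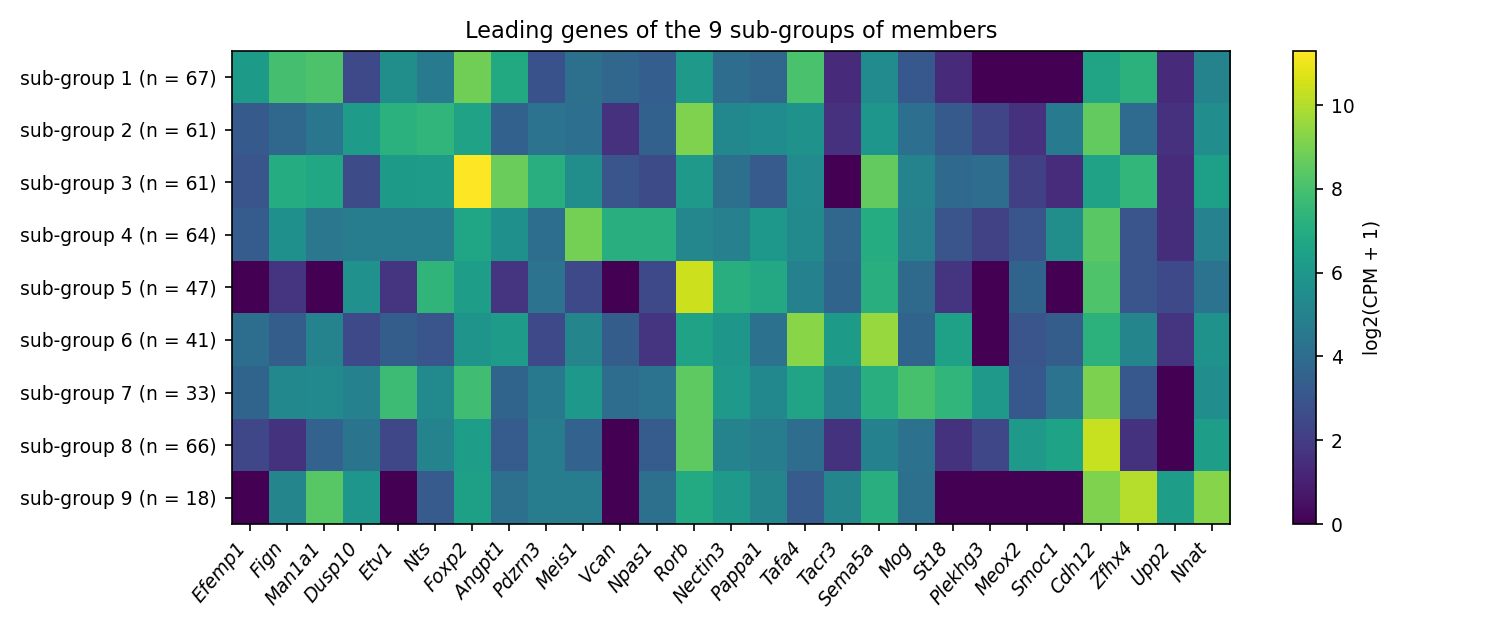
log2(CPM + 1) of leading genes (columns) in each of the 9 sub-groups of members (rows). Foxp2 is at 2519 CPM in sub-group 3, Rorb at 1399 in sub-group 5 and Zfhx4 at 1068 in sub-group 9.

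Most sub-groups were spread over the libraries. In female pools 1 and 3 and male pools 1 to 3, sub-group 4 held 15.5%, 14.6%, 10.2%, 8.70% and 19.6% of the members, and sub-group 8 held 11.3%, 13.2%, 12.2%, 30.4% and 23.9%, highest in male pools 2 and 3. Sub-group 1 held 5.63%, 14.6%, 21.4%, 8.70% and 15.2%. Of the 18 nuclei of sub-group 9, 11 came from female pool 3, 6 from male pool 1 and 1 from male pool 3, so nearly all were of label set A. Female pool 3 and male pool 1, which form that set, held 212 and 98 of all 458 members. With 8 members in female pool 2 and 23 in male pool 2, the shares there rest on few nuclei.

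Female and male members were compared over all 6 libraries, with the label set as a term. Of 8427 genes tested, 12 were called (0.142%), 3 higher in females (0.0356%) and 9 higher in males (0.107%), while 6.38% had an unadjusted p under 0.05 and 7.01% did not overlap between the sexes. The Y-linked genes Kdm5d and Eif2s3y, and a feature that the files name Ddx3, were among the 9. Kdm5d, a histone demethylase, was at 1.21, 0 and 1.88 CPM for female pools 1 to 3 and, for the male pools in this order, at 98.1, 94.1 and 116 CPM, so each library matched its labelled sex (female minus male log2 fold change -5.82 with SE 0.44, edgeR adjusted p = 5.13e-09). The features AC241873.1 and AC239701.4, higher in males, and LOC680227 and AABR07039356.2, higher in females, carry no informative symbol.

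The other 5 called genes were Nefh, Fth1, Mt-nd6 and Apoe, higher in males, and Zeb2, higher in females. Female pools 1 to 3 had 48.5, 56.6 and 52.6 CPM of Nefh, and the male pools 104, 114 and 154 CPM. Female pool 2 held 53008 UMIs over its 8 members, so its values for Nefh and the other called genes rest on few counts. The sexes did not overlap (52.5 ± 4.07 against 124 ± 26.1 CPM, female minus male log2 fold change -1.22 with SE 0.23, edgeR adjusted p = 0.0201), and the log2 difference was -0.97 within set A and -1.32 within set B. The call was kept in 6 of 15 other settings. Nefh was the 1 called among 19 tested genes of fast firing.

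Fth1, the heavy chain of ferritin, was at 155, 169.8 and 61.3 CPM in females and 138, 258 and 322 CPM in males, and the sexes overlapped (log2 fold change -1.02 with SE 0.19, edgeR adjusted p = 0.0189). Mt-nd6, a mitochondrial gene, was at 50.9, 18.9 and 5.01 CPM in females and 17.4, 134 and 156 CPM in males, also with overlap (log2 fold change -1.65 with SE 0.31, edgeR adjusted p = 0.0189). The median mitochondrial share of members ran from 0.134% to 2.28% between libraries, and its part in this call was not tested. Apoe, a lipid carrier made mainly by glia, was at 131, 321 and 52.6 CPM in females and 228, 233 and 255 CPM in males (log2 fold change -1.28 with SE 0.26, edgeR adjusted p = 0.0431), with a log2 difference of -2.09 within set A and -0.25 within set B. Female pool 2 had the highest Apoe of all.

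Zeb2, a zinc finger factor, was at 12.1, 56.6 and 173 CPM in females and 51.1, 4.96 and 11.6 CPM in males (log2 fold change 1.62 with SE 0.32, edgeR adjusted p = 0.036), with its top value in female pool 3. Zeb2 was also at 418 against 62.6 CPM in sub-group 7, and 19 of the 33 nuclei of that sub-group came from female pool 3. That pool held 212 of all 458 members, and the sub-group made up 8.96% of its members and 7.21% of all members. The part of that sub-group in the call was not tested. The calls were kept in 6 of 15 (Fth1), 6 of 14 (Mt-nd6), 7 of 15 (Apoe) and 8 of 13 (Zeb2) other settings. The next genes by p with an informative symbol included Mt-atp8, Rps21, Mt-nd5, Niban1, Cox7c, Trps1 and Sparcl1, with edgeR adjusted p from 0.103 to 0.211.

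**Figure D5:**
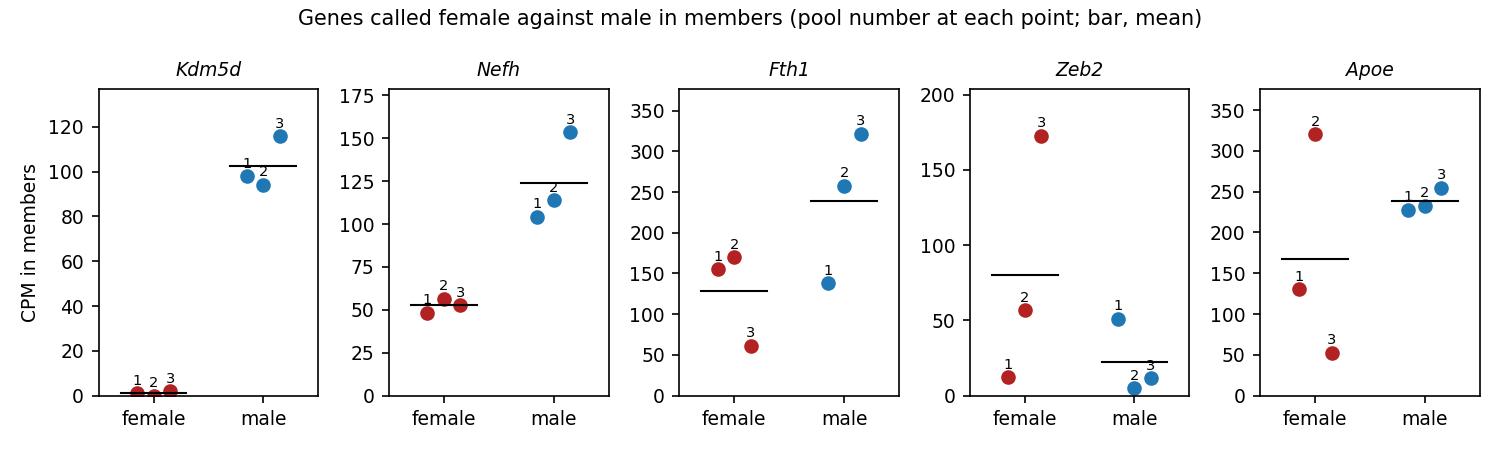
CPM in members of genes called between female and male pools, where each point is 1 pool. Kdm5d (1.21, 0 and 1.88 against 98.1, 94.1 and 116 CPM) and Nefh (48.5, 56.6 and 52.6 against 104, 114 and 154 CPM) do not overlap between the sexes. Values of female pool 2 rest on 8 members and few counts.

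Of the 12 tested factors of the medial ganglionic eminence and pallidum, 5 genes of GABA synthesis and release, 22 glutamate receptors and 8 steroid and hormone receptors, 0 were called between the sexes by edgeR at an adjusted p under 0.05. A difference that misses the threshold with 3 pools against 3 is not shown to be absent.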

How the data were processed

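Single-nucleus RNA was sequenced from 6 libraries, 3 of each sex. The deposited files are matrices of UMI counts per gene and barcode, not normalized, written by Cell Ranger 4.0.0 per the file headers. Reads were counted with Cell Ranger on the rn6 build, per the submitters' processing notes, with an annotation release not given in the sources used here. Symbols were taken from the files. Label set A or B is the wording of the library source in the labels, and what it stands for is not given there. No pair of libraries of the same sex agreed within sampling noise in a chi-square test of counts.

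Nuclei were kept from 500 UMIs and 300 genes up, with a mitochondrial share below 5%. The members and the gene lists were chosen with earlier results of these data known. Counts were summed per library and class and tested with edgeR 4.0.16 in R 4.3.3 (quasi-likelihood test, TMM normalization, filterByExpr, Benjamini-Hochberg adjustment over all genes tested), and the scripts were tested on simulated data. Classes needed 10 nuclei in a library to enter a fit. DESeq2 1.42.0 was an alternative, and the others were scaling, filters, stricter members, doublet removal, a replicate block and leaving out libraries. The planned comparison with Sst and Npy interneurons gave 2 nuclei, since Npy had 9 UMIs in all, and Sst/Nos1 interneurons, chosen after seeing the data, took its place. The named genes of a class comparison are the 12 highest and 8 lowest by fold among called genes with an informative symbol, the same direction in every library and a mean of 20 CPM in the higher class. For the sexes they are the called genes up to 10 and the next 10 by p. Sub-groups came from 2000 variable genes, 20 principal components, 15 neighbours and a resolution of 0.5 in scanpy 1.11.5, and their leading genes had at least 50 CPM and a UMI in 20% of nuclei. Python 3.11.15, numpy 2.4.6, scipy 1.17.1 and pandas 2.3.3 were used. CPM is counts per 1000000 of the summed UMIs of a class in a library. Some genes of the lists and of the named genes are not reported here. Intervals and floors (3 counts) cover counting error only.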

Additional observations from a re-analysis of the deposited data

How the results depend on the processing

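The difference in member share between the sexes, 0.141 percentage points, turned to -0.119 with members without Pde10a and ranged from -0.346 to 0.636 when single libraries were left out, with -0.0519 without male pool 2. The count of genes called between the sexes, 12, became 7 with DESeq2, 20 with no filter on low counts, 5 with members without Pde10a and 7 with no term for the label set, and it ranged from 8 to 16 over single libraries left out. With the replicate number as a block in place of the label set it was 6. The numbers are not known to pair the libraries. Same-numbered female and male libraries correlated at -0.297, 0.00426 and -0.26 in their deviations over 8430 genes. Those of unlike number ran from -0.197 to 0.403, highest for the 2 libraries of set A, so these values cannot decide the pairing. With members without Pde10a, the counts against other, spiny, cholinergic and Sst/Nos1 neurons became 2354, 2562, 757 and 715, and with DESeq2 those against cholinergic and Sst/Nos1 neurons became 851 and 690. Leaving out single libraries gave 3908 to 4440, 4039 to 4685, 918 to 1419 and 822 to 1057. The 12 highest and 8 lowest genes named for each class comparison kept direction and call in every alternative in which they were tested, and some genes, such as Syt2 and Klf5, were not tested in all of them. Among list genes, Tacr3, Grik4 and Kcnab3 changed sign against other neurons, and Grik4 against spiny neurons, with members without Pde10a. With Lhx8 and Sema3c both at 2 or more UMIs, the median of all genes against spiny neurons shifted by -0.105 on the log2 scale. Female pool 2, with 8 members, and male pool 2, with 23, limit every value by library.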
